A study of Mus musculus with 4 samples.

Results

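The genes described here encode parts of 2 enzymes of the mitochondrial respiratory chain. They were picked by a rule of name and place, as the protein-coding genes on mouse chromosomes 1 to 19 with symbols beginning Nduf, or Cox and a digit. The rule uses no signal value, but earlier results of these data were known when the genes were chosen. It gave 73 of the 20665 autosomal protein-coding genes in the mm10 gene table. A further 3 genes of these names on chromosome X fell outside the rule. Complex I, the NADH dehydrogenase to which the Nduf genes belong, oxidises NADH, passes the electrons to ubiquinone and pumps protons. Complex IV, cytochrome c oxidase, passes electrons from cytochrome c to oxygen. Some core subunits of both enzymes are encoded in mitochondrial DNA, and all genes here are nuclear. The colonic epithelium relies on this chain, since colonocytes oxidise butyrate made by bacteria.

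The study mapped Fos, a subunit of the AP-1 transcription factors that injury and growth signals induce, by CUT&Tag. In this assay an antibody brings the transposase Tn5 to the protein and the DNA around it is cut and sequenced. Of 4 libraries from colonic epithelium of wild-type mice, 2 came from healthy controls and 2 from mice recovered from colitis. Colitis had been induced by 1 to 1.5% dextran sodium sulfate (DSS) in the drinking water, given for 7 days and withdrawn for 10 in each of 3 rounds, and recovery lasted 22 days. The mucosa was scraped off after EDTA treatment. The stated purpose was to locate Fos binding in both states and to test computational predictions against it. The mice's age, sex and strain, and whether tissue was pooled, are not given in the sources used here, and no batch label per library was used.

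The values come from 1 peak list for the series, with no value per library. Healthy and recovered colon could not be compared, there is no replicate error, and no test was run. A summit is the highest point of a called peak. Its fold is the authors' enrichment over a background of 3.16 fragments per base, and its pileup is the number of fragments that overlap it, read from the fold. The list held 178981 summits in 108406 regions, with a median fold of 6.74, a lowest of 2.65 and a highest of 671.6. No control library was used here, so the part that Tn5 cutting of open chromatin has in any value was not tested. Intervals on pileups are exact 95% Poisson intervals and cover counting error only; PCR copies of 1 molecule would make them too narrow.

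The labelled tissue was checked at marker genes. All 10 epithelial markers, Cdh1, Epcam and Krt20 among them, had a summit at 1 or both ends of the gene, at most 1 kb away, with strongest folds from 18.8 to 172.9. The same held for 1 of 8 leukocyte markers (Itgam, fold 104.2), 3 of 6 fibroblast markers (folds 3.37 to 6.98) and 0 of 4 endothelial markers. It also held for 1 of 4 smooth muscle markers (Tagln, 3.61) and 2 of 4 autosomal enteric neuron and glia markers (Uchl1, 3.61, and S100b, 17.6). The Itgam summit stood at the end of the gene and not at its start. Of 6 leukocyte markers with a known strand and ends at least 4000 bp apart, 0 had a start summit. Ptprc, the pan-leukocyte marker CD45, had no summit in its gene or within 50 kb of it. The share of other cell types in the values of the respiratory chain genes was not tested.

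A boundary here is either end of a gene, and a boundary summit lies within 1 kb of it. A distal summit lies in the gene or within 50 kb of it and at no protein-coding gene's boundary. Of the 73 genes, 65 had a boundary summit (89.0%, 95% Wilson interval 79.8 to 94.3), beside 63.3% of all autosomal protein-coding genes. Ribosomal protein genes stood at 76 of 80 and proteasome subunit genes at 45 of 50 (90.0%), 2 families of genes that every cell uses. The 65 genes had a median strongest boundary fold of 30.1, with an interquartile range of 17.1 to 52.2, beside 27.7 (11.5 to 56.0) for all genes with a boundary summit. The order of these medians turned among genes with no other boundary within 2000 bp of either end, at 19.2 beside 23.3, and with a −log10 q of at least 10, at 30.2 beside 31.8. By the quartiles of that wider set (11.5, 27.7 and 56.0), 10 members lay below the first, 19 between the first and the median, 21 between the median and the upper quartile and 15 above it. Respiratory chain genes thus had boundary summits often. Their strongest boundary folds ran from 5.29 to 106.8, within a wider range of 2.65 to 394.7 over all genes, and their interquartile range was the narrower.

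The promoters that follow are windows at listed starts, chosen mostly for the strongest or the missing start signals. They come from RefSeq, build GRCm38.p6, and hold 250 bases before and 50 after a listed start, 5′ to 3′ on the strand of the gene. Of the 73 genes, 59 matched an entry. Capitals mark exact matches, on either strand, to AP-1 (TGANTCA), the cyclic AMP response element (CRE, TGACGTCA), the NRF-1 palindrome with any base at 1 middle position, ETS (CCGGAA), YY1 (AAGATGGC) and the CCAAT box (CCAAT). Positions count from 0 at the start base, with upstream bases negative. The 3 highest start folds among these genes were at Ndufa6, on chr15:82354242-82354541 (minus strand), Ndufa11, on chr17:56717512-56717811 (plus strand), and Ndufs8, on chr19:3912725-3913024 (minus strand).
Ndufa6: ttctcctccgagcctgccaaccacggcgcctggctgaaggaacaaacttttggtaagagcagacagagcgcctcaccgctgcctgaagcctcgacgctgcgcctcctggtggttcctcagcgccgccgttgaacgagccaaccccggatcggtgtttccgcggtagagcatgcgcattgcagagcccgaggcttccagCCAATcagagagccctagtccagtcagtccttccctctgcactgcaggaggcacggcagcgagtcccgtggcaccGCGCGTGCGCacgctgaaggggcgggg
Ndufa11: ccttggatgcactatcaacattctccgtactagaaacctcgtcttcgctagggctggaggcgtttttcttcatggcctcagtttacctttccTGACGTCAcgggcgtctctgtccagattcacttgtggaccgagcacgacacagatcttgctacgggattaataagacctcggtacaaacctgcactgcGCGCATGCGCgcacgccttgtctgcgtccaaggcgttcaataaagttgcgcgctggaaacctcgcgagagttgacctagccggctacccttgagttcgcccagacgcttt
Ndufs8: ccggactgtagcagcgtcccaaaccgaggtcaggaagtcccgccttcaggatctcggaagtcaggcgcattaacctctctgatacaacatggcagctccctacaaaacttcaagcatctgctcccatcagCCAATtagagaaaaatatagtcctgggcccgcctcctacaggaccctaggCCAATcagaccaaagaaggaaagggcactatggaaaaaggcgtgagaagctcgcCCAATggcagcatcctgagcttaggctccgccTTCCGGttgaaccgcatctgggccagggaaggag
The Ndufa6 window has a CCAAT box at -52 and an NRF-1 match at 23, and its summit lay 128 bp upstream of the start. In Ndufa11 a CRE match begins at -158 and an NRF-1 match at -60, and the strongest summit lay 607 bp upstream, outside the window and nearest to Vmac. The Ndufa11 window is thus not the sequence under that summit. A weaker summit, of fold 18.0, stood 59 bp downstream of the start, just past the window. Ndufs8 has 3 CCAAT boxes and an ETS match at 16, with its summit at -197. None of the 3 windows holds these AP-1 letters.

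The next 2 promoters belong to tissue isoforms of complex IV with no boundary summit, Cox7b2, on chr5:71548156-71548455 (minus strand), and Cox8b, on chr7:140900397-140900696 (minus strand). A further window is that of Cox7a1, on chr7:30183921-30184220 (plus strand), a heart and muscle isoform chosen after its values were seen because it did have a strong start summit.
Cox7b2: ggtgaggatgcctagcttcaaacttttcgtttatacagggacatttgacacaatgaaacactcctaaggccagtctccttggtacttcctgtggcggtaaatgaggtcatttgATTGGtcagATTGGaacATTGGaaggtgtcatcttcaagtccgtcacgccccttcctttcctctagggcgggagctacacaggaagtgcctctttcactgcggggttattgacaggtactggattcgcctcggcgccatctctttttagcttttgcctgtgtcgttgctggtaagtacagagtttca
Cox8b: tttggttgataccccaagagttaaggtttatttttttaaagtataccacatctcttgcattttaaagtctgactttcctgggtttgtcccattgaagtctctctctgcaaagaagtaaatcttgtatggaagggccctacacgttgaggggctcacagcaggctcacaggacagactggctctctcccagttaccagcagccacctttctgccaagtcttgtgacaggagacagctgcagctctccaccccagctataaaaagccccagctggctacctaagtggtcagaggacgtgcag
Cox7a1: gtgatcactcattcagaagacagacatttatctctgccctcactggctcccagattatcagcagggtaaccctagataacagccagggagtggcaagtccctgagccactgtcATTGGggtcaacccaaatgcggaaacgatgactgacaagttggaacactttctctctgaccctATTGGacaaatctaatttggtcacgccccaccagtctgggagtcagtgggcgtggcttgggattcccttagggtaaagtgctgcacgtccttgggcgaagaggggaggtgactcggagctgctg
Cox7b2 has 3 CCAAT boxes and 10 CpG dinucleotides, Cox8b has none of the motifs and 2 CpG, and Cox7a1 has 2 CCAAT boxes and 7 CpG. The last promoters are the AP-1 matches with the highest and the lowest start fold, also chosen after their values were seen. They are Ndufa5, on chr6:24527477-24527776 (minus strand), and Ndufa9, on chr6:126849095-126849394 (minus strand).
Ndufa5: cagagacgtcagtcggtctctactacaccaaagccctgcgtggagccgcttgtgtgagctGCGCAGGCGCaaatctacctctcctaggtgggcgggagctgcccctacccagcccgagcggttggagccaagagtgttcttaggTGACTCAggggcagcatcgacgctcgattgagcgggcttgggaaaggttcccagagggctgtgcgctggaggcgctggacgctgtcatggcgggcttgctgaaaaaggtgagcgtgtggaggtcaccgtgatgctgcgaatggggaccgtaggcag
Ndufa9: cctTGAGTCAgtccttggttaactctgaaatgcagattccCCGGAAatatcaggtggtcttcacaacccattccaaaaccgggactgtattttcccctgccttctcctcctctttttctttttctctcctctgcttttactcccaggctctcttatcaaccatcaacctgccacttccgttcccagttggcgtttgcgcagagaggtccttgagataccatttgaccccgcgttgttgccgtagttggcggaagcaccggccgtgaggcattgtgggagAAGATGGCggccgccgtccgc
In Ndufa5 an NRF-1 match begins at -190 and the AP-1 letters at -106, and the summit, with a fold of 71.9, lay at -212. In Ndufa9 the AP-1 letters begin at -247, an ETS match at -210 and a YY1 match at 29, and the summit, with a fold of 6.01, lay at -110. Neither summit fell on the AP-1 letters.

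The core subunits of complex I include those that carry the flavin and the iron-sulfur clusters along which electrons travel. The 6 core genes with a boundary summit had a median strongest fold of 52.2. Ndufs8, an iron-sulfur subunit, had a boundary fold of 87.8 and 364 fragments (328 to 403). Ndufv1, which holds the flavin and binds NADH, had 77.9 and 323 fragments (289 to 360), and its partner Ndufv2 had 74.1 and 307 (274 to 343). These intervals overlap. Ndufs1, the largest subunit, had 30.3 and Ndufs7 27.7, with intervals of 104 to 149 and 94.0 to 137 fragments, both below those of the first 3 genes. Ndufs3 was lowest, at 10.1 and 41 fragments (29.4 to 55.6).

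Supernumerary subunits surround the core and are needed for assembly and stability. Of the 30 genes 28 had a boundary summit, with a median strongest fold of 27.5. Ndufa6 had the highest boundary fold of all 73 genes, 107 with 443 fragments (403 to 486), above 91.4% of all genes with a boundary summit. Ndufa11 had 88.3 with 366 fragments (329 to 405) and Ndufb5 87.6 with 363 (327 to 402), which cannot be told apart from each other by counting error. Ndufv3 had 78.4 and Ndufa5 71.9. At the other end, Ndufs4, whose loss causes Leigh syndrome, had 5.77 with 23 fragments (14.6 to 34.5), Ndufa9 6.01 with 24 and Ndufb8 6.98 with 28. The other 20 genes with a boundary summit lay between 11.3 (Ndufc2) and 55.6 (Ndufb6, at a summit nearest to Smim27).

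The 2 supernumerary genes with no boundary summit were Ndufb4b, on chromosome 19 from 25033108 to 25033578, and Ndufb4c, on chromosome 15 from 73809449 to 73809933. Both are paralogs of Ndufb4 with spans of 471 and 485 bp, and Ndufb4 itself had a boundary fold of 32.2. How reads were placed among such copies is not given in the sources used here.

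Assembly factors build complex I and are not part of the finished enzyme. All 8 Ndufaf genes had a boundary summit, with a median strongest fold of 19.6. Ndufaf8 had 70.0 with 290 fragments (258 to 325), Ndufaf3 56.0 with 232 (203 to 264) and Ndufaf2 41.4 with 171 (146 to 199). Ndufaf7, Ndufaf4, Ndufaf5 and Ndufaf6 lay between 13.2 and 20.2. Ndufaf1, which acts on an early membrane intermediate, had 5.29 with 21 fragments, the lowest boundary fold of all 65 genes with one.

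Complex IV was counted with Ndufa4 and Ndufa4l2, since the product of Ndufa4 is a subunit of complex IV despite its name. Of its 19 subunit genes 14 had a boundary summit, with a median strongest fold of 23.3. Cox8a was highest at 83.2 with 345 fragments (310 to 383). Ndufa4 had 56.3, Cox4i1 51.7 and Cox7a2l, a factor that joins complexes III and IV into supercomplexes, 51.2. Their intervals, 204 to 265, 186 to 245 and 184 to 243 fragments, overlap. Cox6c was lowest, at 5.77 with 23 fragments (14.6 to 34.5).

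The assembly factors of complex IV insert its copper and haem and fold its subunits. All 9 genes had a boundary summit, with a median strongest fold of 36.8 and a range from 14.0 to 81.5. Cox20, a chaperone of the subunit COX2, had 81.5 with 338 fragments (303 to 376) and Cox18, which inserts that subunit into the membrane, 75.8 with 314 (280 to 351). Cox14 had 52.2, and Cox17, the copper chaperone, 36.8. Cox10 and Cox15, which make haem A, had 23.6 and 46.4. Cox11 was lowest, at 14.0 with 57 fragments (43.2 to 73.9). Medians over the 5 role groups rest on 6 to 28 genes each, and whether they differ was not tested.

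**Figure D1:**
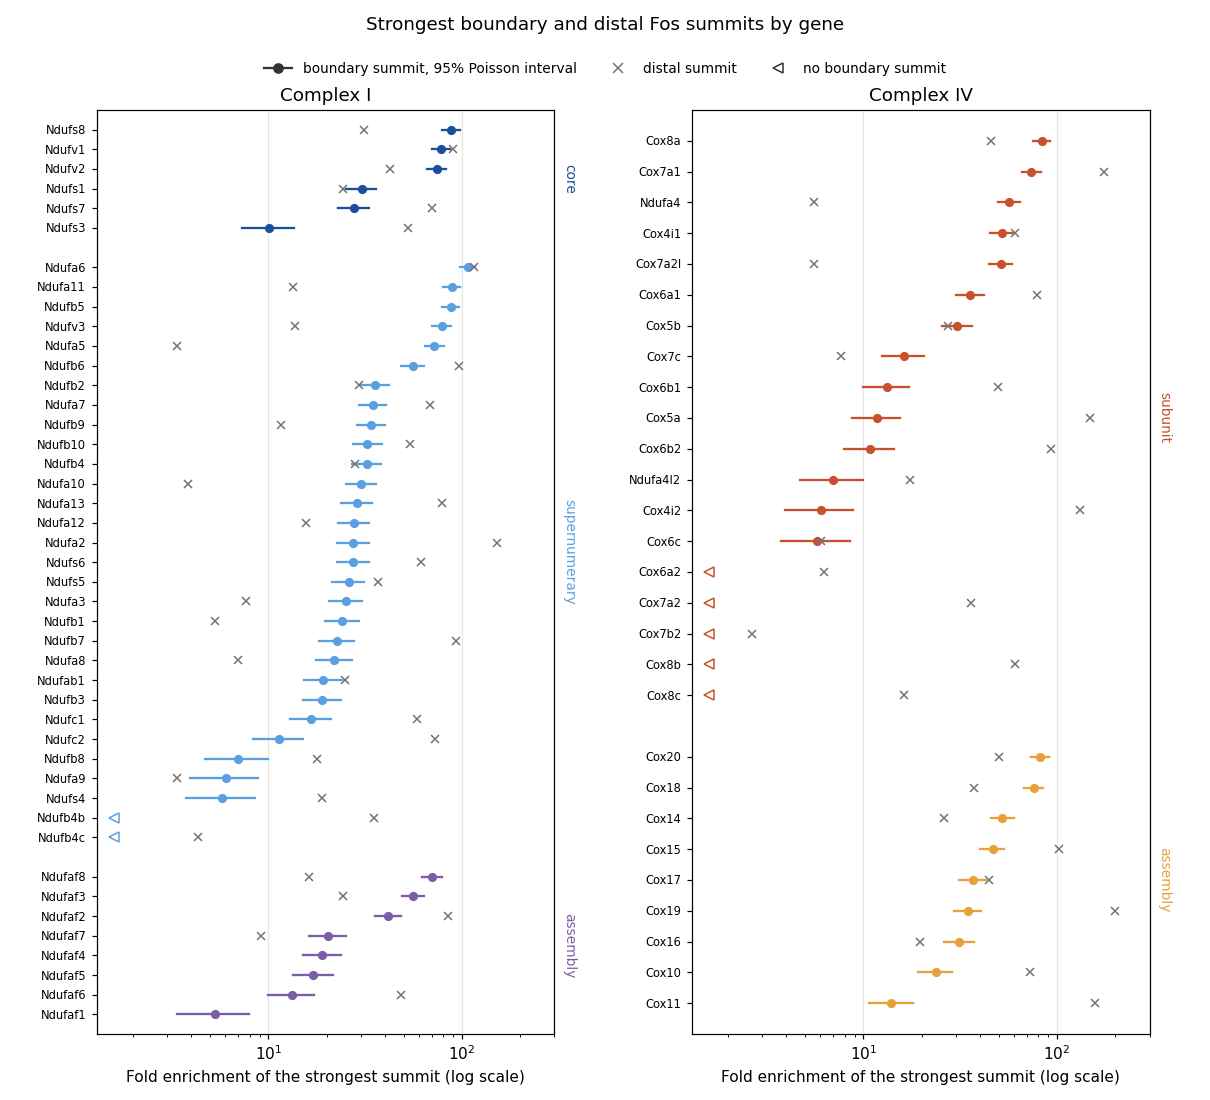
Fold enrichment (log axis) of the strongest boundary summit of the genes reported here (filled circle, bar: 95% Poisson interval of its pileup on the fold scale) and of their strongest distal summits (cross), by complex and role. Open triangles mark genes with no boundary summit. Boundary folds run from 5.29 (Ndufaf1) to 107 (Ndufa6).

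Several complex IV subunits exist as a widely expressed isoform and as isoforms of particular tissues. Of the 8 tissue isoform genes 4 had a boundary summit, with a median strongest fold of 8.90. Among the other 65 genes 61 had one, with a median of 30.3. Cox4i2, the lung isoform that hypoxia induces, had 6.01 with 24 fragments (15.4 to 35.7), against 51.7 with 214 (186 to 245) at Cox4i1. The 2 summits counted for Cox4i2, at 681 and 136 bp from the upper end of its span, lay inside Cox4i2 and inside the overlapping gene Bcl2l1. Ndufa4l2, also induced by hypoxia, had 6.98 with 28 fragments (18.6 to 40.5), at a summit nearer to Stac3, against 56.3 with 233 (204 to 265) at Ndufa4. Cox8a had 83.2, and neither the muscle isoform Cox8b nor the testis isoform Cox8c had a boundary summit. Cox6a1 had 35.6 and the muscle isoform Cox6a2 none, and the testis isoform Cox7b2 had none and only 1 distal summit, of fold 2.65.

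In the Cox6b pair counting error did not separate the isoforms, and in the Cox7a pair the tissue isoform was higher. The testis isoform Cox6b2 had 10.8 with 44 fragments (32.0 to 59.1) and the widely expressed Cox6b1 13.2 with 54 (40.6 to 70.5), intervals that overlap. Cox7a1, the heart and muscle isoform, had a fold of 73.6 with 305 fragments (272 to 341), 3 bp from its listed start, the window printed earlier. Its counterpart Cox7a2 had no boundary summit, but its listed start lay 4612 bp inside the span of the gene, and a summit of fold 35.8 with 148 fragments stood 62 bp upstream of that start. The interval of Cox7a1 therefore lies above that of any summit at a start of Cox7a2, 125 to 174 fragments at the strongest.

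**Figure D2:**
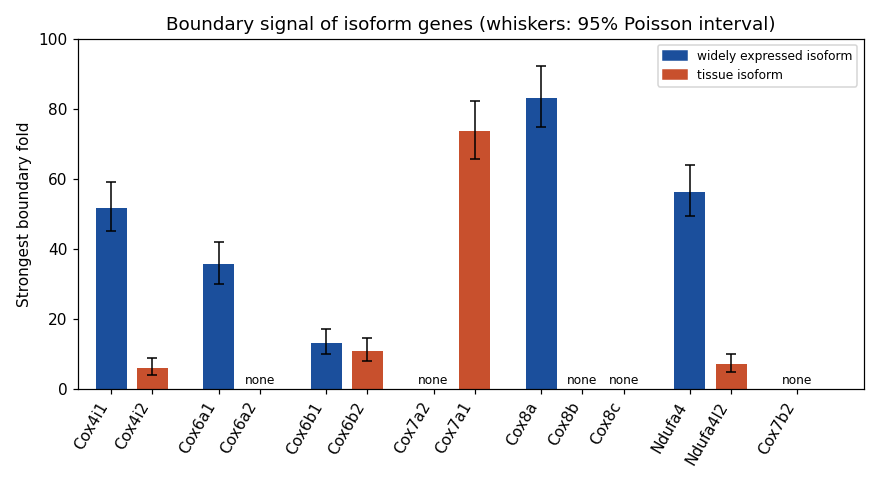
Strongest boundary fold (linear axis from 0, whiskers: 95% Poisson interval of the pileup on the fold scale) of widely expressed (blue) and tissue (red) isoform genes. Tissue isoforms are at 10.8 or below or have no boundary summit, except Cox7a1 at 73.6. Cox7a2 has none at its span ends, and its listed start is inside the span.

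Signal at the ends of these genes was mainly signal at their starts. For the 44 genes with a known strand and ends at least 4000 bp apart, 42 had a summit within 1 kb of the start (95.5%, beside 67.1% of all such genes) and 13 within 1 kb of the end (29.5%, beside 17.9%). The median strongest fold was 27.5 at starts and 4.81 at ends, beside 28.9 and 6.98 in all genes. Of the 13 genes with both, 11 had the higher fold at the start, beside 77% of all genes with both. The exceptions were Ndufb6, with 20.9 at its start and 55.6 at its end, where Smim27 is the nearest gene, and Cox5a, with 5.05 and 11.8. The listed start of Cox5a lies 3904 bp inside its span, and the summit 101 bp downstream of that start had a fold of 45.5. The 2 genes with no start summit were Cox7b2 and Cox7a2, whose listed start inside the span was described with the isoforms.

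By the starts listed in the promoter table, a choice made after the data were seen, 56 of 59 genes had a summit within 1 kb (94.9%, beside 63.5% of all genes with an entry). The 3 without were Cox7b2, Cox8b and Ndufb4b. In 52 of the 56 (92.9%) the strongest such summit lay within 250 bp of the start, as in 74.4% of all genes with one. It was upstream in 37 (66.1%, beside 59.9% of all genes) and downstream in 19, with a median position of -94.5 bp, beside -62.0 bp in all genes. Cox14 was nearest, at 1 bp upstream, and Ndufa11 farthest.

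**Figure D3:**
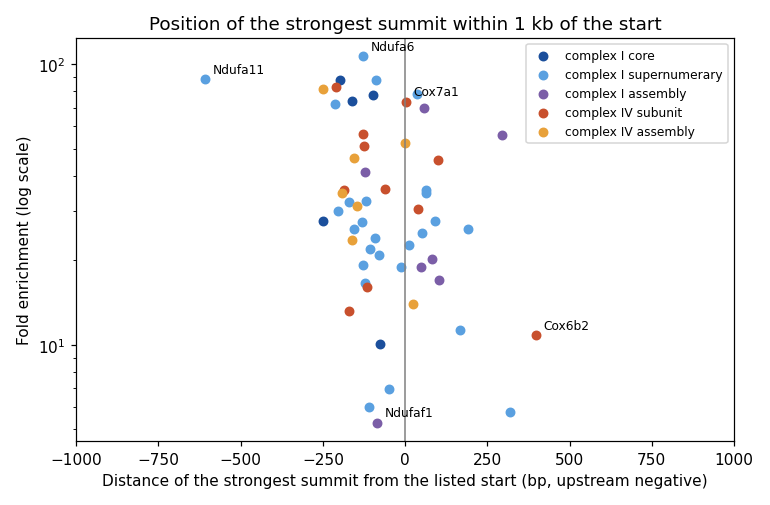
Distance in bp of the strongest summit within 1 kb of the listed start (upstream negative) against its fold (log axis) for 56 genes, coloured by role. Points gather within 250 bp of the start at all folds, and Ndufa11, at -607, is the farthest.

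Promoters of these genes were rich in CpG, with a median of 20 CpG per 300 bases (range 2 to 42) and 59.0% GC, beside 14 CpG and 57.0% GC over all promoters in the table. Among promoters with 10 or more CpG, 54 of 55 members (98.2%) and 88.6% of all genes had a start summit, with median folds of 30.3 and 32.2. Of the 4 members with fewer than 10 CpG, Cox7a1 (fold 73.6) and Ndufc2 (11.3) had a start summit and Cox8b and Ndufb4b did not, and among all such genes 27.1% did. The difference between members and all genes was smaller among CpG-rich promoters than over all promoters, and its dependence on CpG was not tested further.

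The AP-1 letters occurred in 4 of 59 member promoters (6.78%), at Cox7c, Ndufa13, Ndufa5 and Ndufa9, and in 7.07% of all promoters, or in 7.27% and 3.67% of those with 10 or more CpG. Start folds of the 4 genes were 16.1, 26.0, 71.9 and 6.01. Their median was 21.05, beside 30.9 in the other 52 genes with a start summit, and only Ndufa5 lay above the latter. CRE matches stood at Ndufa10, Ndufa11 and Ndufb2 (5.08%, beside 2.32% of all promoters, or 5.45% and 3.54% with 10 or more CpG). NRF-1 and the ETS factor NRF-2 (GABP) are known activators of nuclear respiratory chain genes. The NRF-1 palindrome with any middle base stood in 10 of 59 member promoters (16.9%, beside 6.87%), and the exact palindrome, which the first includes, in 4 (6.78%, beside 1.34%). ETS matches were in 22 (37.3%, beside 19.7%) and YY1 matches in 10 (16.9%, beside 3.26%), while the CCAAT box was in 21 (35.6%, beside 38.8%). With 10 or more CpG the shares were 18.2% beside 11.4% for the looser NRF-1 form, 38.2% beside 29.3% for ETS and 18.2% beside 4.64% for YY1. Median start folds of members with and without a match were 29.8 and 30.3 for the looser NRF-1 form, 30.7 and 29.1 for ETS, 35.6 and 27.7 for CRE and 35.6 and 26.8 for the CCAAT box. For YY1 they were 24.3 and 32.4. Over all genes the same medians were 32.95 and 29.1 for AP-1, 37.8 and 28.1 for NRF-1 and 32.5 and 27.8 for ETS. They were 31.0 and 29.1 for CRE, 35.1 and 26.0 for the CCAAT box and 33.9 and 29.1 for YY1. For AP-1, NRF-1 and YY1 this order is the reverse of that among the members, where AP-1 rests on 4 genes. A match describes the letters only.

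Many of these starts lay beside another gene. Of 59 members with a strand 22 (37.3%) had another protein-coding boundary within 1 kb of the start, beside 15.8% of all such genes. In 18 (30.5%, beside 10.6%) that boundary was the start of a gene on the opposite strand, so 1 summit can lie within 1 kb of both starts. All 22 had a start summit, beside 88.7% of all genes with such a neighbour, and the median strongest folds were 38.0 and 39.0. Of the other 37 members 33 had a start summit (89.2%), beside 55.3% of all genes with no such neighbour, with medians of 27.7 and 25.5. Ndufb5 shared its start with Mrpl47 (fold 87.6) and Ndufs6 with Mrpl36 (27.4), both genes of the mitochondrial ribosome, and Ndufa7 shared its start with the ribosomal gene Rps28 (34.6). Other head-to-head partners were Vmac at Ndufa11, Wdr4 at Ndufv3, Asb15 at Ndufa5, Tepsin at Ndufaf8 and Phf14 at Ndufa4. Which gene of a pair a summit belongs to cannot be told apart here.

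Away from boundaries these genes were close to the background. The median number of distal summits was 11 per gene, equal to that of all autosomal protein-coding genes, with an interquartile range of 4 to 18 beside 3 to 22. Epithelial markers had a median of 47.5, ribosomal protein genes 11.5 and proteasome genes 12. Boundary windows of members held 0.628 summits per kb and distal windows 0.122, beside 0.434 and 0.109 in all genes. The 179 boundary summits had a median fold of 10.8 and the 916 distal summits one of 6.01, beside 10.3 and 6.25 in all genes. Only 1 summit of the 1467 in any member's window was shared by 2 members.

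Cox19 had the most distal summits, 51, and the highest distal fold, 198.0 with 822 fragments, on chromosome 5 at 139317511. That summit was 20311 bp outside the gene and inside Adap1. Cox4i2 followed with 42 distal summits, the strongest of fold 131.6 at 1205 bp from Id1, an inhibitor of basic helix-loop-helix factors. Ndufaf6 had 34, Cox10 32, Cox4i1 29 and Ndufaf2 28, and 13 of those of Cox10 and 11 of those of Ndufaf2 lay inside these long genes. High distal folds also stood near Cox7a1 (174.6, inside Capns1), Cox11 (157.1, inside Tom1l1) and Ndufa2 (151.8, nearest to E230025N22Rik). The strongest distal summit was inside the member or nearest to it in 16 of the 68 members with one (23.5%, beside 39.4% of all genes with a distal summit). Members are shorter, with a median span of 7643 bp beside 17491 bp in all genes, and the part of gene length in this share was not tested. At Ndufa6 the strongest distal summit lay inside the gene and had a fold of 115.9 with 481 fragments (439 to 526). That interval overlaps the one of the boundary summit, 403 to 486. At Cox20, whose listed start is 1058 bp inside the span, the distal summit of fold 50.3 was also inside the gene. It stood at 178319202, beside that start at 178319153, and counts as distal only because boundaries are span ends. The strongest distal summit of Cox7a2 was likewise the one 62 bp upstream of its listed start. Both genes are among the 16. At the other end, Ndufb3, Ndufb5, Ndufaf1, Ndufaf4 and Ndufaf5 had no distal summit (5 of 73, beside 14.3% of all genes), while their boundary folds ran from 5.29 to 87.6.

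Among the 60 members with both kinds of summit, the strongest boundary fold was above the strongest distal fold in 27 (45.0%), beside 34.7% of all genes with both. The share was 36 of 76 (47.4%) in ribosomal protein genes and 15 of 44 (34.1%) in proteasome genes, so the members' share lies between those of these lists. The median strongest distal fold was 36.3 over 68 members and 40.7 over all genes with a distal summit. At Ndufa5 the boundary fold of 71.9 stood against a distal fold of 3.37, a ratio of 21.4. Ndufa4 (56.3 against 5.53) and Cox7a2l (51.2 against 5.53) followed, with ratios of 10.2 and 9.26. The reverse held at Cox4i2 (6.01 against 131.6), Cox5a (11.8 against 147.9) and Cox11 (14.0 against 157.1). For Cox5a the boundary fold is that at the span ends, and the fold at its listed start inside the span was 45.5. The boundary fold was more than 3 times the distal fold in 10 of the 60 members (16.7%, beside 11.6% of all genes with both), and the distal fold more than 3 times the boundary fold in 14 (23.3%, beside 33.7%).

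**Figure D4:**
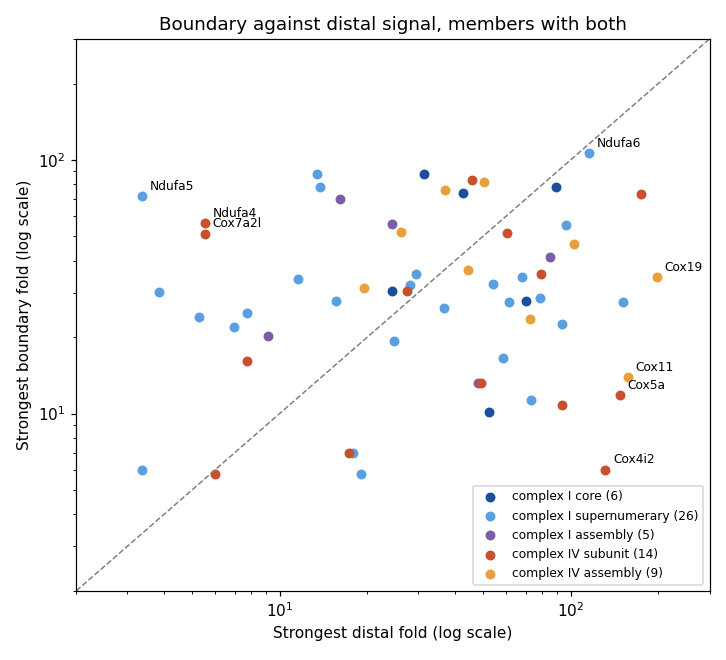
Strongest boundary fold against strongest distal fold (both log axes) for 60 genes with both, coloured by role (numbers of genes in the key); the dashed line marks equal folds. 27 genes lie above the line, with Ndufa5, Ndufa4 and Cox7a2l farthest above it and Cox4i2 farthest below.

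The rest of the chain and its regulators were counted the same way. Of 29 genes of complexes II, III and V and cytochrome c 28 had a boundary summit, all but Atp5g3, with a median strongest fold of 33.4. The highest were Uqcrq of complex III at 287.4, Atp5g1 of the ATP synthase at 162.6 and Cycs, cytochrome c, at 158.5. These are above the 107 of Ndufa6, the highest of complexes I and IV. All 10 regulators of mitochondrial biogenesis had a boundary summit, with a median of 71.0, from 7.94 at Ppargc1a to 185.5 at the nuclear receptor gene Esrra. Ppargc1b and Ppargc1a, coactivator genes of mitochondrial biogenesis, had 98 and 55 distal summits, more than any gene of complexes I and IV. Longer genes have wider distal windows, and the median span was 28048 bp in the regulators and 7643 bp in the members. Per kb of distal window the regulators held 0.148 summits and the members 0.122, beside 0.109 in all genes.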

How the data were processed

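CUT&Tag for Fos was done on 4 libraries, 2 per group. Per the submitters' processing notes, Bowtie2, MACS2 and the build mm10 were used, with neither versions nor settings named. The sources used here do not say which libraries entered the deposited list or how deep each was. The deposited fold at a summit is a linear ratio over background. The deposited −log10 q-value is the authors', with a lowest value of 1.80, and the authors' score is 10 times that value without decimals. These are the authors' values and serve to describe and rank summits within the list.

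Folds were whole multiples of 0.2405 to within 7.7e-05 of a step, so the pileup is the fold divided by this step, minus 1. Genes came from a RefSeq table of GRCm38.p6, the assembly behind mm10, and strands and starts from the RefSeq promoter table of that build. For a gene with several listed starts, the start with the highest fold was used. Positions are 1-based. Members and lists were chosen with earlier results of these data known. No test was run, because no value per library was used here. By rule, the text names the 8 genes with the highest boundary fold, all with no boundary summit, the 6 with the most distal summits, the 4 with the highest distal fold, and the isoform pairs. Other genes were named after their values were seen, and 1 gene that the rule names is not reported here. Alternatives varied the boundary distance, the window, the q-value minimum, the summits kept and the genes kept. Counting was checked on simulated data. Python 3.11.15, pandas 2.3.3 and scipy 1.17.1 were used.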

Additional observations from a re-analysis of the deposited data

How the results depend on the processing

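No paired analysis was possible because the peak list carries no values per library, and no replicate could be left out for the same reason. Of the 45 alternatives run, 37 gave a count within 1.5 times the main count or a median within its 95% binomial interval. That rule looks at the members' own values only, so it does not show whether their order against all genes was kept. Among genes with no other boundary within 2000 bp of either end, 25 of 30 members (83.3%) and 53.3% of all genes had a boundary summit, with a median fold of 19.2 beside 23.3 in all such genes, and fewer genes enter this count by construction. The median number of distal summits, 11 in the main setting, was 4 with windows of 20000 bp, 23 with 100000 bp, 16 when only the gene's own boundaries were set aside and 6 with −log10 q of at least 10, beside 5, 21, 15 and 6 in all genes. The median strongest distal fold was 53.2 with windows of 100000 bp and 57.4 with only the own boundaries set aside, beside 61.1 and 60.1 in all genes. Boundary folds were above distal folds in 19 of 62 members (30.6%, beside 3226 of all 12923 genes) with only the own boundaries set aside, the lowest share, and in 32 of 58 (55.2%, beside 46.5%) with windows of 20000 bp, the highest. Depth per library is unknown, so no limit for undetected summits can be given.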
